A study of Mus musculus with 10 samples.

Results

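The genes described here are the nuclear-encoded subunit genes of mitochondrial complex I, the NADH:ubiquinone oxidoreductase. They were chosen by name alone. A gene was included if it was annotated as protein-coding and its mouse symbol was Ndufa, Ndufb, Ndufc, Ndufs or Ndufv followed only by digits, and Ndufab1 was added. This gave 37 genes of the 55357 gene identifiers in each count table, spread over 15 chromosomes. All 37 were present in both tables, and all 37 passed the filter on low counts in both, so no gene was lost from either comparison.

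RNA-seq counts were deposited for 6 mouse hearts and 4 macrophage cultures. All 6 hearts were labelled Cd163-/-, which lacks the haemoglobin scavenger receptor CD163, on a C57BL/6 background. In the design text, male mice had transverse aortic constriction (a narrowing of the aorta that loads the left ventricle) at 8 weeks of age. Per the labels, 3 hearts came from mice given saline. The other 3 came from mice injected under the skin with recombinant IL-10, an anti-inflammatory cytokine, at 50 µg/kg/day on 12 days between day 0 and day 27 after surgery. Surgery is not given in the label of each heart. Hearts of wild-type mice or of mice without constriction were not analysed here. The macrophages were thioglycolate-elicited peritoneal cells that adhered in culture and received 100 nM dexamethasone, a glucocorticoid, for 48 h. In 2 cultures the cells came from wild-type littermates and in 2 from Cd163-/- mice, and all 4 had dexamethasone. Nothing in the labels says that libraries of a group came from separate mice or cultures, so p-values here measure the spread between these libraries, which may be technical.

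Complex I takes electrons from NADH, passes them along a chain of iron-sulfur clusters to ubiquinone, and pumps protons across the inner mitochondrial membrane. Its matrix arm holds an N module, where NADH is oxidised, and a Q module, where ubiquinone is reduced. Its membrane arm has a proximal and a distal part, whose proton-pumping core is encoded by mitochondrial DNA, while the nucleus encodes the matrix core and a large set of accessory subunits. Heart muscle is packed with mitochondria and relies on this pathway for most of its ATP. Macrophages change how much they rely on it with their activation state.

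Totals were 13.5 to 14.9 M counts per heart (M for mega) and 16.7 to 18.6 M per macrophage library. The share of counts on mitochondrially encoded genes was 33.7% to 39.4% in hearts and 2.43% to 3.12% in the cultures. The lowest count of a complex I gene was 108 in any heart and 27 in any macrophage library, well above a floor of 3 counts. Cd163 itself had 352 and 205 counts in the wild-type cultures and 9 and 14 in the Cd163-/- cultures, and its log2 fold change was -4.79 (SE 0.39, edgeR adjusted p = 0.0013). In the hearts it had 34 to 57 counts, with no wild-type heart to compare. The hearts expressed the cardiomyocyte marker Myh6 at 5452 to 7889 CPM (counts per M counts, on TMM-scaled library sizes), against 8.12 to 15.95 CPM in macrophages. The macrophage marker Lyz2 stood at 16830 to 23080 CPM in the macrophage cultures and 263.5 to 467.7 CPM in the hearts. The protocol text names livers as the RNA source, but of 5 hepatocyte markers Apoa1, Fgb and Serpina1a were at 0 in every heart and Alb had 0 to 2 counts. The other, Ttr, had 2 to 3 counts in saline hearts and 11 to 15 in IL-10 hearts (log2 fold change 2.51, SE 0.56, edgeR adjusted p = 0.0071). In macrophage libraries Alb, Fgb and Serpina1a were at 0, and Apoa1 and Ttr had 0 or 1 count.

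Promoters were searched for short motifs of factors known to control nuclear genes of the respiratory chain. A RefSeq window (GRCm38.p6, 250 bases before to 50 bases after the start) was given for 33 of the 37 genes. The NRF1 motif (GCGCA, any base, then GCGC), read on both strands, was in the windows of 7 genes (21.2%), against 5.19% of 27025 genes with a window. Of the 7 genes, 2 were called higher in the IL-10 hearts (Ndufs6 and Ndufa6), near the share of 9 among the 33 with a window. Ndufa11 was among those that moved least. Sequences are shown as a description, and a link between match and fold change was not tested. Each is read 5′ to 3′ on the strand given, and capitals mark the motif.
Ndufs6, chr13:73328479-73328508, plus strand: ccaagtgccgGCGCAGGCGCacagcagtcg
Ndufa6, chr15:82354249-82354278, plus strand: ccttcagcgtGCGCACGCGCggtgccacgg
Ndufa5, chr6:24527697-24527726, minus strand: tgtgtgagctGCGCAGGCGCaaatctacct
Ndufa8, chr2:36049349-36049378, plus strand: ctccagcgacGCGCAAGCGCactgctctag
Ndufs5, chr4:123718265-123718294, minus strand: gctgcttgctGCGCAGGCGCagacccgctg
Ndufa11, chr17:56717692-56717721, plus strand: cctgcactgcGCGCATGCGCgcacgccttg

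The seventh gene, Ndufb4, held 3 NRF1 matches. A YY1 motif, AAGATGGC, was also in the windows of 7 genes (21.2%), against 3.19% of all genes with a window. Of these, 4 were called higher in the IL-10 hearts (Ndufa3, Ndufa9, Ndufb8 and Ndufs6). Among all 33 genes with a window 9 were called, and the difference was not tested. Every one of the 7 matches lay on the gene's own strand, in an exon, with its first base 23 to 39 bases after the RefSeq start. In every one the ATG inside the motif was a start codon annotated in GENCODE M21. The motif letters and the context in which translation starts can therefore not be told apart in these windows. The sequences are shown with the motif in capitals, since they place the start codon within the first bases of the transcript.
Ndufa3, chr7:3617384-3617413, plus strand: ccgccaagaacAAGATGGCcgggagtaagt
Ndufa9, chr6:126849097-126849126, minus strand: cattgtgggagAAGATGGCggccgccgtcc
Ndufb8, chr19:44555393-44555415, minus strand: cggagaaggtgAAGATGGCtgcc
Ndufs6, chr13:73328433-73328460, minus strand: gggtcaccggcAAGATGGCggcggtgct
Ndufc1, chr3:51408915-51408944, minus strand: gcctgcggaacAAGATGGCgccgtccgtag
Ndufs4, chr13:114388045-114388070, minus strand: ttgcctacaggAAGATGGCggcggtc
Ndufs7, chr10:80249462-80249491, plus strand: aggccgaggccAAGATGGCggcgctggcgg

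A second YY1 form, CAANATGGC, which overlaps the first, was in 7 windows (21.2%, against 2.9% of all genes). The oestrogen-related receptor motif AAGGTCA was in 3 windows (9.09%, against 5.38%), and the ETS-type motif CCGGAAG in 4 (12.1%, against 9.93%). None of the 9 genes called higher in hearts that had a window held either of those last motifs. A match is a string of letters and shows no binding.

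The first comparison asked how complex I genes differed between IL-10 and saline hearts. Of the 37 genes, 12 rose in the IL-10 hearts (32.4%) and 0 fell, by edgeR's quasi-likelihood test at a Benjamini-Hochberg adjusted p under 0.05 over all 13718 genes tested. Over all tested genes, 6.86% were called higher (941) and 6.7% lower (919). The direction was shared more widely than the calls, with 36 of 37 fold changes above 0. Their median log2 fold change was 0.35, against -0.0079 over all tested genes. The sizes were modest, from a log2 fold change of -0.03 for Ndufa10 to 0.62 for Ndufa2. In 18 genes (48.6%) the lowest IL-10 heart was above the highest saline heart, and in 0 the reverse held. Over all tested genes 15.7% were separated in this way upward and 15.8% downward.

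In bulk tissue, more RNA per cell and more cells of a type cannot be told apart. Of 14 cardiomyocyte markers, 2 were higher in the IL-10 hearts (Atp2a2, the sarcoplasmic calcium pump, log2 fold change 0.62, and Myl3, a myosin light chain, 0.51) and 0 were lower, with a median of 0.16. The sarcomere genes Ttn, Csrp3 and Tnnc1 had values of -0.37, -0.33 and -0.29, with the IL-10 hearts below all saline hearts, and missed the threshold (edgeR adjusted p of 0.0855, 0.151 and 0.186). In all, 5 of the 14 were below 0. With library size alone and with DESeq2's Wald test 1 marker was called lower, and without saline replicate 1 none was called (0 of 14). Their summed level was 35710 to 42940 CPM in saline hearts and 38840 to 44760 CPM in IL-10 hearts. Collagens Col1a1, Col1a2 and Col3a1 were lower among 8 fibroblast markers, and Dcn and Dpt higher, with summed levels of 2555 to 3104 CPM and 2214 to 2763 CPM. All 5 red blood cell genes were lower (582.3 to 1189 CPM summed in saline, 300.4 to 548.1 CPM in IL-10), as were 2 of 6 endothelial and 3 of 5 tested smooth muscle and pericyte markers. Of 10 macrophage markers, Cd68 was lower (-0.61, edgeR adjusted p = 0.0474) although its groups overlapped, with summed levels of 460.6 to 778 CPM in saline and 650.7 to 733.8 CPM in IL-10 hearts. The part of these cell types in the complex I values was not tested.

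**Figure D1:**
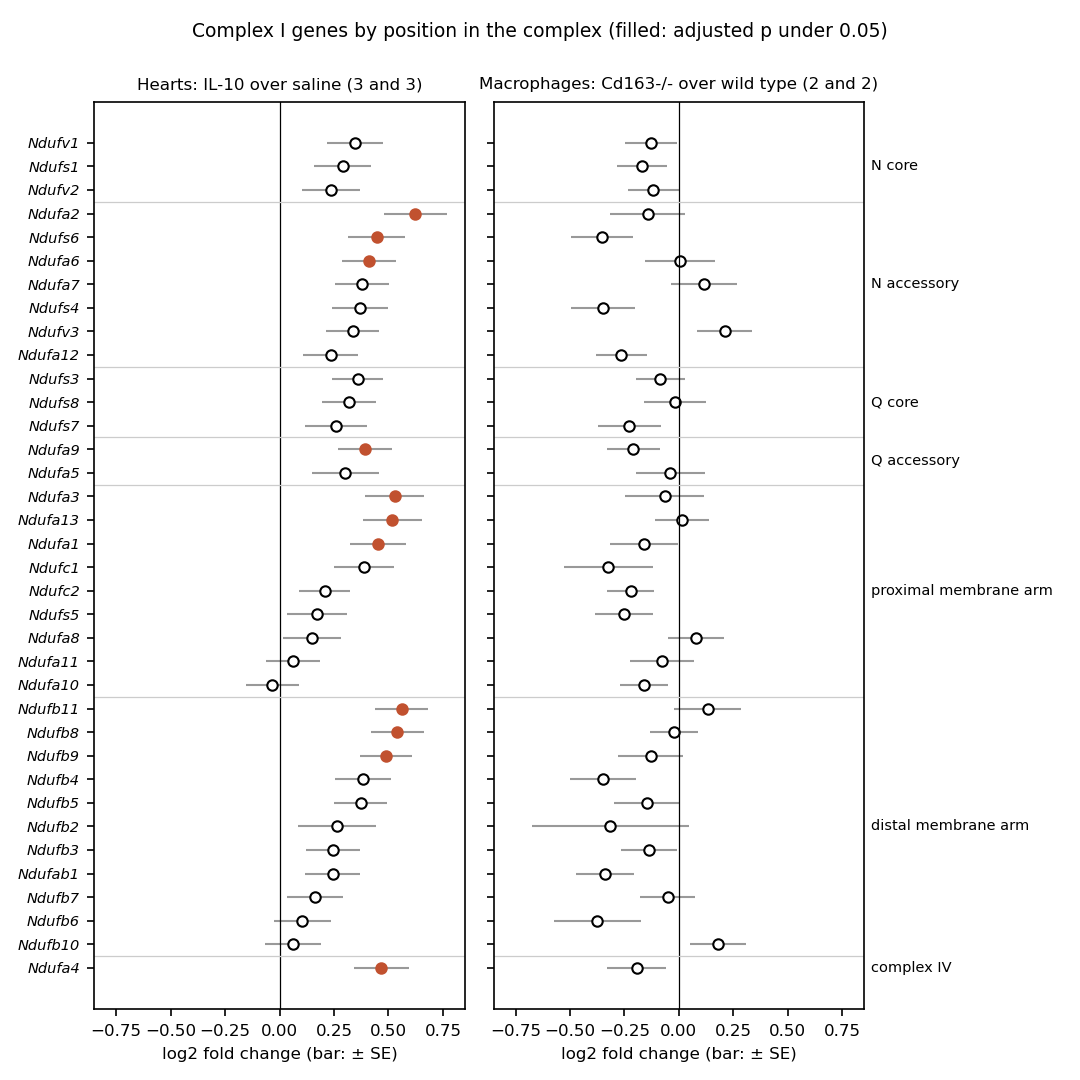
Log2 fold change (x axis, bar ± SE) of 36 complex I genes, ordered by position in the complex, for IL-10 over saline hearts (left, 3 and 3 libraries) and Cd163-/- over wild-type macrophages (right, 2 and 2). Filled points mark an adjusted p under 0.05: there are 11 on the left, all above 0, and 0 on the right, where 29 points lie below 0.

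Counts called in each part of the complex stand beside 32.4% of the family and 6.86% of all tested genes called higher. The parts were not tested against each other. Among the catalytic core genes of the N module, which carry NADH oxidation, 0 of 3 were called, with a median log2 fold change of 0.29. Ndufv1, the subunit that binds NADH and the flavin, was at 300, 360.2 and 312.9 CPM in saline hearts and 448.5, 434.4 and 354.5 CPM in IL-10 hearts. Saline replicate 2 was above IL-10 replicate 3, so the groups overlapped, and the log2 fold change of 0.35 (SE 0.13) had an adjusted p of 0.0821 by edgeR. Ndufs1, the largest iron-sulfur subunit, had a log2 value of 0.29 (SE 0.13, edgeR adjusted p = 0.155). Ndufv2, which carries a further iron-sulfur cluster, had 0.24 (SE 0.13, edgeR adjusted p = 0.264).

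The Q module core passes electrons to ubiquinone. Ndufs3, a subunit needed early in assembly, had 149.2, 175.4 and 155.8 CPM against 219.9, 216.3 and 179.6 CPM. Its groups did not overlap, but its log2 fold change of 0.36 (SE 0.12) missed the threshold (edgeR adjusted p = 0.0554). The iron-sulfur subunits Ndufs8 and Ndufs7 had log2 fold changes of 0.32 (SE 0.12, edgeR adjusted p = 0.101) and 0.26 (SE 0.14, edgeR adjusted p = 0.25).

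Accessory subunits of the N module surround this core. Of 7 genes, 3 rose, and all 7 had fold changes above 0 (median log2 0.38). Ndufa2, a small subunit with a thioredoxin-like fold (chr18:36742332-36744557, GRCm38, minus strand), had the largest fold change of all 37 genes. Its values were 57.75, 75.38 and 60.74 CPM in saline hearts and 103.1, 117.8 and 77.75 CPM in IL-10 hearts. IL-10 replicate 3 was only just above saline replicate 2, and the log2 fold change was 0.62 (SE 0.14, edgeR adjusted p = 0.00931). Ndufs6, the zinc-binding subunit whose 2 motif matches are printed above (chr13:73319838-73328542, minus strand), went from 93.69, 105.7 and 88.03 CPM to 122.4, 156.7 and 112.4 CPM. Its groups did not overlap, and its log2 fold change was 0.45 (SE 0.13, edgeR adjusted p = 0.0317). Ndufa6, a LYR-motif subunit that docks an acyl carrier protein onto the matrix arm (chr15:82350140-82354322, minus strand), went from 114.9, 133 and 113.2 CPM to 158.8, 182.4 and 138.8 CPM. The log2 fold change was 0.41 (SE 0.12, edgeR adjusted p = 0.035), again with no overlap. At the other end, Ndufa12, which replaces an assembly factor at the joint of the N and Q modules, had 0.23 (SE 0.13, edgeR adjusted p = 0.244).

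Of the pair of Q module accessory genes, Ndufa9 rose. Ndufa9, which binds a nucleotide cofactor near the ubiquinone channel (chr6:126821721-126849136, minus strand), had 271.8, 290.7 and 271.1 CPM in saline hearts and 374.3, 409.2 and 311.2 CPM in IL-10 hearts. The saline hearts lay close together and below all IL-10 hearts, and the log2 fold change was 0.39 (SE 0.12, edgeR adjusted p = 0.0436). For Ndufa5 the log2 value was 0.30 (SE 0.15, edgeR adjusted p = 0.215), with saline hearts spread from 95.53 to 146.4 CPM.

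In the proximal membrane arm 3 of 9 genes rose, and the median log2 fold change was 0.21. Ndufa3, a short membrane-spanning subunit (chr7:3617373-3620327, plus strand), had 73.85, 71.01 and 66.38 CPM in saline hearts and 93.82, 126.8 and 84.29 CPM in IL-10 hearts. The saline values were tight, the IL-10 values were not, and the log2 fold change was 0.53 (SE 0.14, edgeR adjusted p = 0.0164). Ndufa13, also known as Grim19 for its part in cell death (chr8:69894180-69902558, minus strand), had 145.4, 162.6 and 156.5 CPM against 222, 264.5 and 179 CPM. Its groups did not overlap, and its log2 fold change was 0.52 (SE 0.13, edgeR adjusted p = 0.0169). Another gene, Tssk6, covers 30% of its exonic bases, and reads of the library kit do not mark the strand. Ndufa1, an X-linked subunit needed for assembly (chrX:37187588-37191163, minus strand), had 43.77, 52.2 and 37.1 CPM against 56.68, 68.08 and 57.09 CPM. All IL-10 hearts were higher, and the log2 fold change was 0.45 (SE 0.13, edgeR adjusted p = 0.0303).

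The arm also held the gene with the lowest fold change. Ndufa10, an accessory subunit with a nucleoside kinase-like fold, had 427.3, 462 and 409.2 CPM in saline hearts and 457.2, 444.5 and 367.6 CPM in IL-10 hearts. Its groups overlapped throughout, and its log2 fold change was -0.03 (95% interval -0.29 to 0.23, edgeR adjusted p = 0.893). The interval lies within a 1.5-fold change either way, and this held for 15 of the 25 genes that were not called. Ndufa11, singled out after its values were seen, was similar at 180.9, 209.1 and 191.9 CPM against 208.9, 228.4 and 170 CPM. Its log2 fold change was 0.06 (95% interval -0.20 to 0.33).

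In the distal membrane arm 3 of 11 genes rose, with a median log2 fold change of 0.26 and all 11 fold changes above 0. Ndufb11, an X-linked subunit of this arm (chrX:20615326-20617619, minus strand), had the smallest p-value of the 37 genes. It stood at 169.4, 189.5 and 180.4 CPM in saline hearts and 266.8, 300.2 and 228.7 CPM in IL-10 hearts. The groups were well apart, and the log2 fold change was 0.56 (SE 0.12, edgeR adjusted p = 0.0062). Ndufb8, whose protein is widely used as a marker of assembled complex I (chr19:44548572-44555440, minus strand), had 203.6, 221.9 and 194.9 CPM against 304.7, 336.2 and 261.7 CPM. The gap between groups was of the same kind, and the log2 fold change was 0.54 (SE 0.12, edgeR adjusted p = 0.00758). Ndufb9, a second LYR-motif subunit (chr15:58933756-58939488, plus strand), had 112.9, 122 and 112.1 CPM against 170.9, 179.8 and 136.7 CPM. Its log2 fold change was 0.49 (SE 0.12, edgeR adjusted p = 0.0125), with no overlap.

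Ndufab1, the mitochondrial acyl carrier protein that LYR-motif subunits bind, was not called. It had 183.1, 215.9 and 182.4 CPM against 251.9, 241.8 and 194.5 CPM. IL-10 replicate 3 lay among the saline hearts, and the log2 fold change was 0.24 (SE 0.13, edgeR adjusted p = 0.218). The smallest fold change of the arm was that of Ndufb10, with a log2 value of 0.06 (95% interval -0.21 to 0.33, edgeR adjusted p = 0.794). Ndufb2, which had the lowest level, had 7.87 to 8.78 CPM in saline hearts and 8.30 to 12.49 CPM in IL-10 hearts (log2 fold change 0.26, SE 0.18, edgeR adjusted p = 0.365).

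Ndufa4 carries a complex I name but is now described as a subunit of complex IV. It was at 437.5, 486.8 and 417.2 CPM in saline hearts and 615.8, 693.3 and 545.7 CPM in IL-10 hearts. All IL-10 hearts were higher, with a log2 fold change of 0.47 (SE 0.13, edgeR adjusted p = 0.0217). Without it, 11 of the called genes remain as complex I subunits in the present sense. Over all 12 called genes IL-10 replicate 2 was the highest heart, and in 11 IL-10 replicate 3 was the lowest IL-10 heart.

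**Figure D2:**
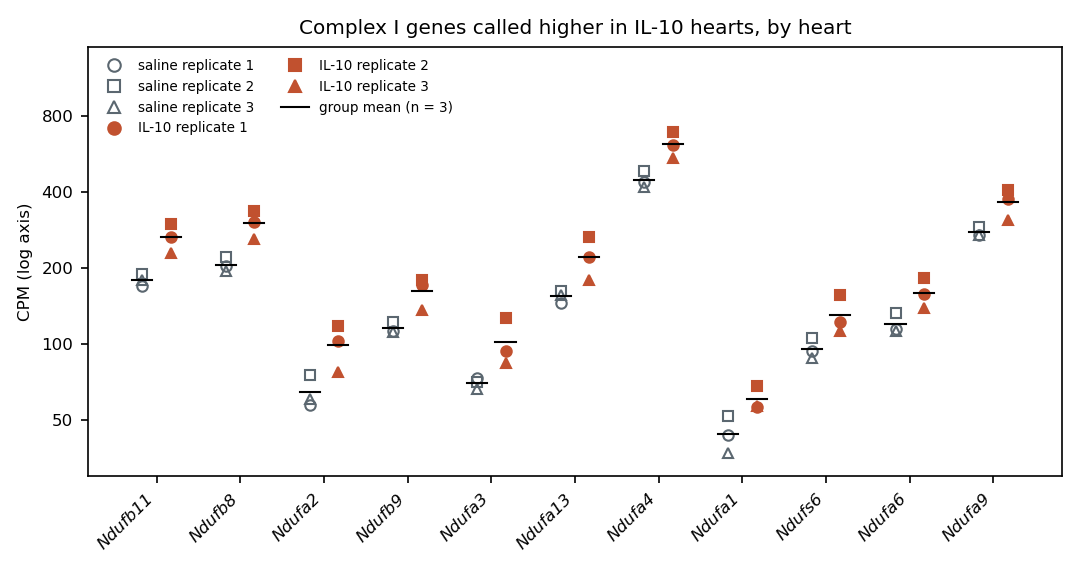
CPM on a log axis for 11 complex I genes called higher in IL-10 hearts, one point per heart (open, saline; filled, IL-10; symbols give the replicate) with the mean of 3 as a bar. In each gene all filled points lie above all open points, IL-10 replicate 2 is highest in all 11, and IL-10 replicate 3 is the lowest IL-10 heart in all but Ndufa1.

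The hearts differed in a way that ran through the whole gene family. Relative to the saline mean, the median complex I gene was at log2 -0.07, 0.14 and -0.08 in saline replicates 1, 2 and 3, and at 0.35, 0.50 and 0.13 in IL-10 replicates 1, 2 and 3. IL-10 replicate 2 was the highest of the 6 hearts in 29 of 37 genes, and IL-10 replicate 3 was the lowest IL-10 heart in 34. In saline replicate 2, 36 of 37 genes were above the saline mean, against 4 in replicate 1 and 6 in replicate 3. Summed over the family, CPM was 6473, 7375 and 6296 in saline hearts (6715 ± 578.4, SD, n = 3) and 8528, 9297 and 7260 in IL-10 hearts (8362 ± 1029, SD, n = 3). The sum in IL-10 replicate 3 was thus below that in saline replicate 2, and the groups overlapped on this measure. As a share of all counts on nuclear genes, the family took 1.06%, 1.16% and 1% in saline hearts and 1.32%, 1.41% and 1.17% in IL-10 hearts.

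The number of called genes depended on which heart was present. Without IL-10 replicate 2, 0 of 37 genes were called by edgeR, although 35 fold changes stayed above 0 and their median was 0.25. Ndufb11 then had an adjusted p of 0.0503 and Ndufb8 of 0.058. Without saline replicate 1 there were 3 called genes, without saline replicate 3 there were 5, and without IL-10 replicate 1 there were 8. Without saline replicate 2 there were 16, and without IL-10 replicate 3 there were 21. The number called among all tested genes also moved with the heart left out, over the ranges given in the last section. These counts are therefore not a measure of the complex I genes alone. No complex I gene was called lower in any of these fits, and the median log2 fold change lay between 0.25 and 0.46.

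**Figure D3:**
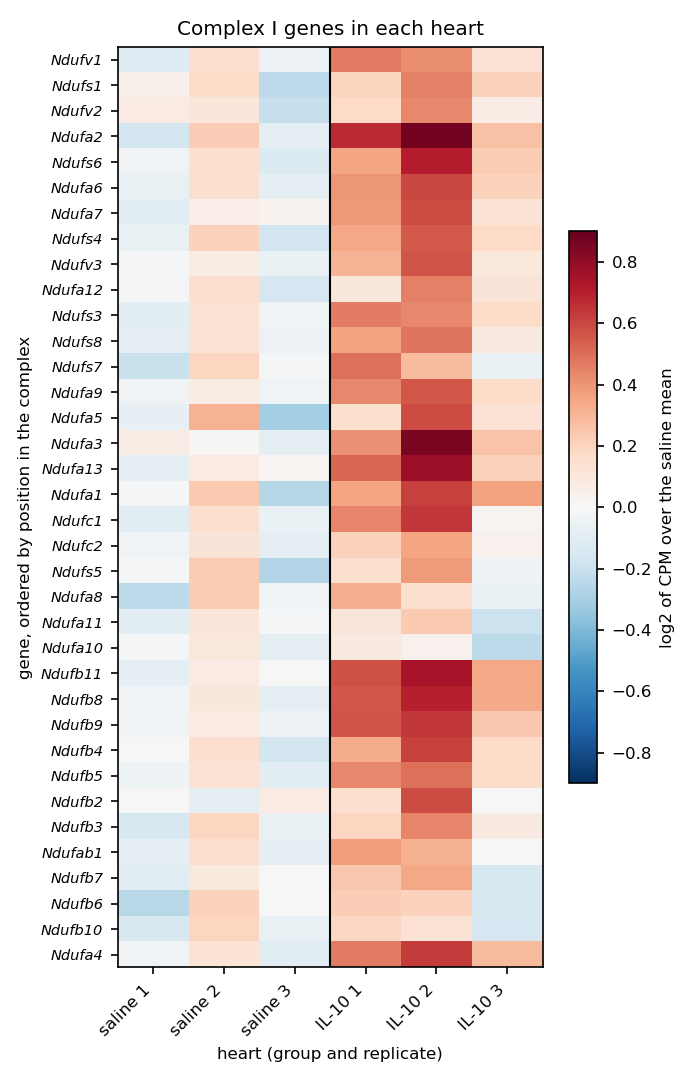
Log2 of CPM over the saline mean (colour) for 36 complex I genes (rows, ordered by position in the complex) in each of the 6 hearts (columns). IL-10 replicate 2 is the most strongly coloured column, saline replicate 2 is above the saline mean in all rows but that of Ndufb2, and IL-10 replicate 3 is the palest IL-10 column.

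Other genes of the pathway were read from lists chosen with earlier results of these data known. Mitochondrial DNA encodes the 7 membrane core subunits of complex I, and 0 of 7 were called in hearts, with a median log2 fold change of 0.09. In the abundant mt-Nd1, saline hearts had 36580, 35860 and 30000 CPM and IL-10 hearts 29430, 42860 and 37890 CPM. The groups overlapped, and the log2 fold change was 0.11 (SE 0.18, edgeR adjusted p = 0.753). Those of mt-Nd2, mt-Nd4, mt-Nd5 and mt-Nd6 lay between -0.07 and 0.13. The short mt-Nd3 and mt-Nd4l varied widely within groups, mt-Nd4l from 290.5 to 1262 CPM among saline hearts, and had log2 fold changes of 0.72 (SE 0.39) and -0.67 (SE 0.35) with edgeR adjusted p of 0.25 and 0.228. Libraries were made from poly(A) RNA. Whether nuclear and mitochondrial subunits differed in their response was not tested.

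Of 18 complex I assembly factors, 2 rose in hearts and 0 fell, with a median log2 fold change of 0.17. Over all tested genes 6.86% were called higher, a share that 2 of 18 is near. Tmem70, which serves the assembly of ATP synthase and of complex I, had 56.43, 59.27 and 49.53 CPM in saline hearts and 83.95, 83.8 and 69.6 CPM in IL-10 hearts. The groups were apart, the log2 fold change was 0.52 (SE 0.12, edgeR adjusted p = 0.0068), and the call held in all 17 alternatives run. Ndufaf8, the partner of the methyltransferase-like factor Ndufaf5, rose by 0.48 on the log2 scale (SE 0.15, edgeR adjusted p = 0.0471). Its call held in 8 of the 17 alternatives.

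Among 38 tested nuclear subunits of complexes II to V, 13 rose and 0 fell, against 6.86% and 6.7% of all tested genes. All 38 fold changes were above 0, and their median was 0.35. The muscle isoform Cox7a1 of complex IV had 69.39, 81.87 and 64.52 CPM in saline hearts and 142.2, 150.3 and 107.6 CPM in IL-10 hearts, a log2 fold change of 0.89 (SE 0.14, edgeR adjusted p = 0.000532). Uqcrfs1, the Rieske iron-sulfur protein of complex III, had 0.64 (SE 0.13, edgeR adjusted p = 0.00502). Sdhb and Sdhc of complex II, Atp5e and Atp5j2 of ATP synthase, Cyc1, Uqcrc1, Uqcrq and Uqcr11 of complex III and Cox4i1, Cox6c and Cox8b of complex IV made up the rest. The share called and the median were close to those of the complex I genes, and the lists were not tested against each other. Without IL-10 replicate 2, 6 of the 38 stayed called.

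Of 15 regulators of mitochondrial genes, 2 rose in hearts and 0 fell, which is also near the 6.86% of all tested genes called higher. Perm1, a muscle factor that acts with PGC-1 and oestrogen-related receptors, had 178.6, 234.5 and 218.5 CPM against 318.6, 299.4 and 255.8 CPM (log2 fold change 0.47, SE 0.13, edgeR adjusted p = 0.024). Esrrg, the oestrogen-related receptor gamma, had 27.59, 32.3 and 24.15 CPM against 39.08, 35.92 and 35.43 CPM (log2 fold change 0.40, SE 0.12, edgeR adjusted p = 0.0435). For both, all IL-10 hearts were higher, and neither was called without IL-10 replicate 2. For Esrra the log2 value was 0.38 (SE 0.13, edgeR adjusted p = 0.065). The coactivator Ppargc1a had 0.29 (edgeR adjusted p = 0.207), Tfam 0.18 (0.394), and Nrf1 and Gabpa, whose motif types were searched above, 0.10 (0.711) and 0.03 (0.901). For Yy1, whose motif was also searched, all IL-10 hearts were above all saline hearts, and its log2 value of 0.28 (SE 0.11) missed the threshold (edgeR adjusted p = 0.109). Ndufa4l2, a hypoxia-induced paralogue of Ndufa4, had 15.44, 14.14 and 14.22 CPM against 12.5, 9.84 and 12.02 CPM. All IL-10 hearts were lower, but its log2 fold change of -0.35 (SE 0.15) missed the threshold (edgeR adjusted p = 0.128).

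The second comparison set Cd163-/- against wild-type macrophages under dexamethasone. No complex I gene was called higher (0 of 37) or lower (0 of 37) by edgeR, and 2 had an unadjusted p under 0.05. DESeq2 and limma-voom also called 0. Over the 13861 genes tested, 13.1% were called higher (1817) and 13.3% lower (1846), and 5711 had an unadjusted p under 0.05. Fold changes were below 0 in 29 genes and above 0 in 8, with a median log2 of -0.14 against 0.01 over all tested genes. Relative to the wild-type mean, the median complex I gene was at log2 0.04 and -0.04 in wild-type replicates 1 and 2. In Cd163-/- replicates 1 and 2 it was at -0.04 and -0.21. Cd163-/- replicate 2 was the lowest library in 28 genes, and Cd163-/- replicate 1 in 2. Summed CPM was 1382 and 1330 in wild-type and 1339 and 1195 in Cd163-/- cultures, so the groups overlapped on this measure. Upper-quartile scaling moved the median of all genes to 0.13 and library size alone to 0.19. The complex I median moved with it, and stayed below that of all genes by a log2 difference of -0.15 under each. Under each of these scalings 30 of the 37 genes lay below the median of all genes. The groups were separated downward in 18 genes (48.6%) and upward in 3 (8.11%). Over all tested genes 34.1% were separated downward and 35.3% upward. As a share of all counts on nuclear genes, the family took 0.134% and 0.128% in wild-type and 0.148% and 0.129% in Cd163-/- cultures. On this measure, which has no TMM scaling, the Cd163-/- cultures were not lower.

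The smallest adjusted p was that of Ndufab1, at 30.78 and 32.41 CPM in wild-type and 26.55 and 23.33 CPM in Cd163-/- cultures. The log2 fold change was -0.34 (95% interval -0.67 to -0.02, edgeR adjusted p = 0.108). Ndufs6 had 18.77 and 17.73 CPM against 14.7 and 13.89 CPM, with a log2 fold change of -0.35 (95% interval -0.70 to -0.01, edgeR adjusted p = 0.116). The Cd163-/- cultures were lower in both genes, by more than the spread within groups, but neither passed the adjustment over all genes. The largest negative value was that of Ndufb6 (-0.37, SE 0.20, edgeR adjusted p = 0.212), at 19.61 and 19.77 CPM against 17.84 and 12.5 CPM. Smim27 covers 39% of its exonic bases.

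In macrophages the fold changes of core genes were small. In the N module core Ndufs1, Ndufv1 and Ndufv2 had log2 values of -0.17, -0.13 and -0.12, with edgeR adjusted p of 0.321 to 0.492. In the Q module core Ndufs7, Ndufs3 and Ndufs8 had -0.23, -0.08 and -0.02. Of the accessory genes, Ndufv3 had the highest value, 0.21 (SE 0.13, edgeR adjusted p = 0.264), and the highest in the distal and proximal membrane arms were Ndufb10 with 0.18 and Ndufa8 with 0.08. Ndufc1 had -0.32, Ndufa9 -0.21, Ndufa4 -0.19 and Ndufa5 -0.04. For 30 of the 37 genes the 95% interval lay within a 1.5-fold change either way. Differences of a size inside these intervals are not excluded with 2 libraries a group. In simulated data the macrophage fit recovered 10.4% of 1.5-fold changes, placed in genes drawn at random from all tested genes. That share was not measured for complex I genes alone. A gene not called is not shown to be unchanged.

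Markers of cell types moved with genotype in the cultures. Of 10 macrophage markers, Adgre1, Ptprc and Cd14 were lower in Cd163-/- cultures and Mrc1 higher, with a summed level of 25370 to 29680 CPM in wild-type and 21890 to 22800 CPM in Cd163-/- cultures. Of 6 tested fibroblast markers 4 were higher and 1 lower (1644 to 2426 CPM summed against 3678 to 4845 CPM), and 3 of 5 mesothelial markers were higher (80.46 to 114.8 CPM against 213.2 to 257.9 CPM). Both tested granulocyte markers were lower. Of 4 tested smooth muscle and pericyte markers 1 was higher, Acta2 (188.6 to 247.7 CPM summed over the list against 420.6 to 714.6 CPM). Of 12 tested cardiomyocyte markers 2 were lower, Atp2a2 (log2 fold change -0.63) and Ttn (-1.82). The part of these marker shifts in the complex I values was not tested.

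The other lists were mixed in macrophages, where 13.1% of all tested genes were called higher and 13.3% lower. The counts called among mitochondrially encoded genes, assembly factors and complexes II to V were below those shares. Mitochondrially encoded complex I genes had 0 of 7 called and a median log2 fold change of -0.27. Of 18 assembly factors, Tmem126b rose (0.56, SE 0.14, edgeR adjusted p = 0.036) and Ndufaf4 fell (-0.77, SE 0.14, edgeR adjusted p = 0.0139), from 20.85 and 19.77 CPM to 12.06 and 11.72 CPM. Of 37 tested subunits of complexes II to V, Cyc1 (-0.46, edgeR adjusted p = 0.0293) and Cox7a2 (-0.55, edgeR adjusted p = 0.0338) fell and 0 rose, and neither was called with upper-quartile scaling or library size alone.

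Of 11 tested regulators, 5 fell in Cd163-/- cultures and 0 rose, against 13.3% and 13.1% of all tested genes. The count that fell was 5 under both of those scalings too. Esrra, the oestrogen-related receptor alpha, went from 43.73 and 44.93 CPM to 24.16 and 27.28 CPM. The log2 fold change was -0.79 (SE 0.13, edgeR adjusted p = 0.00934). The coactivators Ppargc1b and Pprc1 had -1.50 (edgeR adjusted p = 0.0247) and -0.98 (edgeR adjusted p = 0.00986), the corepressor Nrip1 -1.19 (edgeR adjusted p = 0.0105) and Perm1 -1.33 (edgeR adjusted p = 0.0168). Tfam had -0.12, Nrf1 -0.07 and Gabpa -0.04, none of them called. Ppargc1a and Esrrg were too low to be tested, at no more than 0.5 and 0.05 CPM.

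Levels were compared between genes as CPM per kb of transcript, using the shortest principal transcript in GENCODE M21. Ndufa4 had the highest level in both sources, 989.3 ± 79.2 CPM per kb in saline hearts (SD, n = 3) and 163.6 ± 9.69 in wild-type macrophages (SD, n = 2). In hearts Ndufa11 (355.9 ± 26.1) and Ndufb10 (336.1 ± 42.7) followed, and in macrophages Ndufc2 (84.4 ± 1.67) and Ndufb8 (72.8 ± 1.06). Ndufb2 was lowest in both, at 18.3 ± 0.99 and 4.93 ± 0.33 CPM per kb, with Ndufs4 next in hearts (58.5 ± 8.19) and Ndufa5 in macrophages (14.02 ± 0.52). In the heart order, only 3 of 36 pairs of neighbours did not overlap in their 3 saline values, so most adjacent ranks were not separated beyond their spread. Log2 levels in the 2 sources correlated across the 37 genes (Pearson's r 0.811, Spearman's rho 0.636), a description only, since both share the transcript lengths and the annotation.

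The tables were normalized separately, so the ratio between them is a description of these libraries. Per kb, the median complex I gene was 4.78 times as high in saline hearts as in wild-type macrophages, with a range from 2.15 for Ndufa1 to 9.61 for Ndufa5. Ndufa11 had a ratio of 9.23. The ratio depends on the total used, since CPM includes counts on mitochondrially encoded genes. These took 34.3% to 38.3% of counts in saline hearts and 2.43% to 3.12% in wild-type macrophages. Of counts on nuclear genes alone, the family took a mean of 1.073% in saline hearts and 0.131% in wild-type macrophages.

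**Figure D4:**
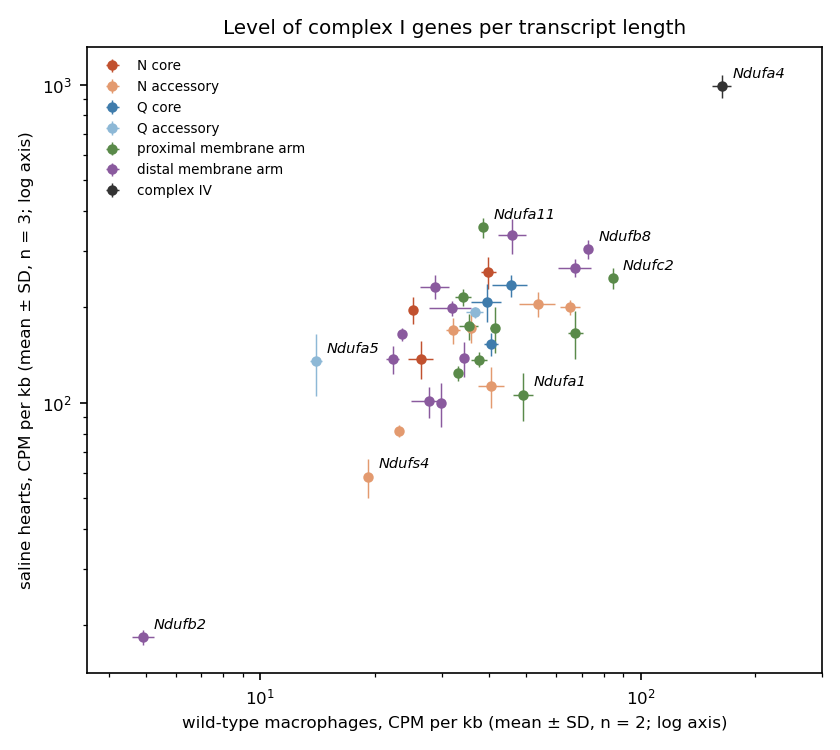
Level of 36 complex I genes in saline hearts (y axis) against wild-type macrophages (x axis), in CPM per kb on log axes, as mean ± SD of 3 hearts and 2 cultures and coloured by position in the complex. Ndufa4 is highest and Ndufb2 lowest in both, and Ndufa5 and Ndufa11 lie above the main group.

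The fold change in hearts had little relation to other measures of the genes. Across the 37 genes its Pearson's r on log2 scales was -0.151 with mean saline level and -0.163 with transcript length. With the log2 fold change in macrophages it was 0.101. In all, 28 genes were above 0 in hearts and below 0 in macrophages, and 8 were above 0 in both. These are comparisons with different factors, IL-10 in one and Cd163 genotype in the other, and their difference was not tested.

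Near relatives outside the rule were kept apart. Ndufb1-ps, annotated as a bidirectional-promoter lncRNA in GENCODE M21, occupies the Ndufb1 name in mouse. It had 29.1 ± 4.20 CPM in saline and 38.96 ± 8.67 CPM in IL-10 hearts (SD, n = 3 each; log2 fold change 0.42, SE 0.15, edgeR adjusted p = 0.0795). In macrophages it fell from 15.15 and 16.65 CPM to 10.56 and 7.5 CPM (log2 fold change -0.81, SE 0.21, edgeR adjusted p = 0.0372), and this call held in 8 of 15 alternatives. Processed pseudogenes could share reads with their parents. In hearts Ndufab1-ps had 6.08%, Ndufs6b 3.31%, Ndufb4c 7.25% and Ndufa11b 0.012% of the counts of the parent gene. Exons of 16 of the 37 genes overlap another gene, by over 20% of all their annotated exonic bases only in Ndufa13 and Ndufb6. Against the transcript used for levels the overlap can be larger. Ndufb2, lowest in level, has 447 overlapping bases (7.9% of 5628 exonic bases) and a transcript of 455 bases. Ndufb5 has 616 overlapping bases and a transcript of 1079. What such overlap does to the counts was not tested.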

How the data were processed

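The deposited values are gene counts in 2 tables, one of hearts and one of macrophages. The authors made these counts with HISAT2 2.2.1 and featureCounts (no version given), per the submitters' processing notes. The notes list both GRCm39 and mm10, so the build behind the counts is not settled. Coordinates are those of GENCODE M21 on GRCm38, which named 52081 of 55357 identifiers. All deposited counts were whole numbers, and 0 columns were left without a sample. Per the labels' protocols, poly(A) libraries were made with a NEBNext Ultra kit.

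Each table was fitted alone in R 4.3.3 with edgeR 4.0.16: filterByExpr (minimum count 10, minimum total 15), TMM scaling and the quasi-likelihood test. Adjustment was by Benjamini-Hochberg across every tested gene of a table, with 0.05 as the limit for a call. A gene is said to have risen or fallen only when called. Intervals are 95%. A floor of 3 counts equals 0.192 to 0.22 CPM in hearts and 0.149 to 0.191 CPM in macrophages and covers counting error only. Alternatives used DESeq2 1.42.0, limma 3.58.1, other scalings and filters, a replicate block, a gene length offset and each library left out. The fit was tested on simulated data, in which the altered genes were drawn at random from all tested genes. With the heart libraries, 47.8% of genes altered by 1.5-fold were detected, and 76.1% of those altered by 2-fold. With the macrophage libraries these shares were 10.4% and 52.2%. In both sources, then, a modest change can be present in a gene that was not called.

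1 gene of the family is counted but not reported here. The members and lists were chosen with earlier results of these data known. Otherwise named with values are the catalytic core genes, Ndufab1, Ndufa4, the called genes, and in each part of the complex the largest and smallest fold change, and the highest and lowest level per kb. Replicate numbers are not shown to pair the samples, though so few libraries a group cannot exclude it. Correlations of deviations between same-numbered hearts were -0.179, 0.0421 and 0.0034, and -0.113 between same-numbered macrophage libraries.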

Additional observations from a re-analysis of the deposited data

How the results depend on the processing

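In hearts the median log2 fold change of the complex I genes stayed between 0.25 and 0.46, and no complex I gene was called lower, under all 17 alternatives run. The count called higher was 7 with upper-quartile scaling, 7 with library size alone and 19 with DESeq2's Wald test, against 12, and 0 to 21 when 1 library was left out. Of all genes, 941 were called higher and 919 lower. With upper-quartile scaling these were 716 and 1120, with library size alone 549 and 993, and with 1 heart left out 450 to 1082 and 447 to 1012. Ndufb11 and Ndufb8 were called in 16 of 17 alternatives each. Near 0, with 1 heart left out, Ndufb10 ranged from -0.0062 (without saline replicate 1) to 0.17, and Ndufa10 from -0.083 to 0.072 (without IL-10 replicate 3; it was 0.018 without saline replicate 2).

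In macrophages 0 complex I genes were called under any of the 15 alternatives. The median log2 fold change of -0.14 became -0.03 (-0.0255) with upper-quartile scaling and 0.038 with library size alone. Genes called higher and lower, 1817 and 1846, became 2310 and 1403 with upper-quartile scaling and 2665 and 1220 with library size alone. Leaving out 1 library gave 360 to 1838 and 374 to 1973, the lowest without Cd163-/- replicate 1, and a lone library is then assumed to vary like the other group. These scalings moved all genes up together. Signs turned in 7 of the 37 genes with upper-quartile scaling and in 16 with library size alone, and all of these stayed below the median of all genes. With upper-quartile scaling Ndufa5 was 0.074, Ndufs3 0.029 and Ndufs8 0.095. With library size alone Ndufa5 was 0.14, Ndufs1 0.0096, Ndufs3 0.092, Ndufs8 0.16, Ndufv1 0.049 and Ndufv2 0.060. With a gene length offset Ndufa5 was 0.0087 and Ndufs8 0.037. With 1 library left out, Ndufs8 ranged from -0.12 to 0.091 (without wild-type replicate 1; 0.065 without Cd163-/- replicate 2), Ndufa5 from -0.11 to 0.022, Ndufa8 from -0.025 to 0.17 and Ndufb2 from -0.75 to 0.023. For the changes under the length offset and with 1 library left out the cause was not tested.

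With the replicate number as a block, 13 complex I genes were called higher in hearts and 0 in macrophages, genes called were 772 higher and 751 lower in hearts and 1308 and 1348 in macrophages, and medians were 0.34 and -0.14. With block and length offset the counts of complex I genes were 10 and 0, and in macrophages Ndufa5 was 0.0083 and Ndufs8 0.038. The numbers are not shown to pair the samples.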
